A study of Mus musculus with 57 samples.

Results

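The genes described here are 9 regulators and readouts of the epithelial-mesenchymal transition (EMT), measured by bulk RNA-seq in mouse embryonic stem cells (ESCs) that differentiated in retinoic acid (RA). They were chosen by name. They are the classical cadherins Cdh1 (E-cadherin) and Cdh2 (N-cadherin), the intermediate filament gene Vim (vimentin), and the transcription factors Snai1 (Snail), Snai2 (Slug), Zeb1, Zeb2, Twist1 and Twist2. All 9 were found among the 55450 gene identifiers of the count table, and all 9 passed the filter on low counts in each of the 34 comparisons, which gave 306 tests. In GENCODE M21 (GRCm38), Cdh1 lies at chr8:106603351-106670246 and Snai2 at chr16:14705852-14709385, both on the plus strand. Vim (chr2:13573927-13582826, plus strand), Zeb2 (chr2:44983632-45117395, minus strand) and Snai1 (chr2:167538195-167542814, plus strand) share a chromosome, as do Zeb1 (chr18:5591860-5775467, plus strand) and Cdh2 (chr18:16588877-16809246, minus strand). Twist1 lies at chr12:33957671-33959829 and Twist2 at chr1:91801461-91848028, both on the plus strand.

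In EMT, cells loosen epithelial junctions and take on a motile, mesenchymal form. E-cadherin holds epithelial and pluripotent cells together, and Snail, Slug and the Zeb factors repress its gene through E-box motifs, while Twist factors are basic helix-loop-helix proteins that promote mesenchymal genes. The exchange of E-cadherin for N-cadherin, called the cadherin switch, accompanies neural plate formation as well as gastrulation and neural crest delamination, and vimentin is abundant in mesenchyme, in neural progenitors and in parietal endoderm.

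All samples came from 1 reporter ESC line, Sox1-EGFP/FoxA2mCherry, in which EGFP replaced 1 Sox1 allele and mCherry was fused to FOXA2, so each group is a population of the same clone. Undifferentiated cells (D0) had no RA listed and were sorted as Sox1-FoxA2-. Per the study, cells were seeded in serum medium with leukaemia inhibitory factor before the exchange to N2B27 with RA. Changes from D0 to D2 therefore hold the change of medium as well as RA, and these cannot be told apart. Cells kept in N2B27 medium with 1 uM RA for 2, 4 or 6 days (D2, D4, D6) were sorted into Sox1-FoxA2-, Sox1+FoxA2-, Sox1-FoxA2+ and Sox1+FoxA2+ populations, where Sox1 marks neuroectoderm and FoxA2 marks endoderm. For the progeny, the last 3 of these populations were sorted at D2, replated in serum-based medium with 1 uM RA, and harvested at D4 or D6 with no further sort. Progeny and sorted cells of a day therefore differ in replating, in basal medium and in the day of the sort, and those effects cannot be told apart. The gate names of progeny refer to their state at D2 and not at harvest. Each of the 19 conditions has 3 libraries, described by the study as biological replicates.

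The 57 libraries held 10170632 to 81845651 counts on genes (median 36694379), and 14458 to 27832 genes had at least 1 count. Foxa2 lay at 1067 to 3241 normalized counts in the FoxA2+ gates of D2 and at 0 to 324 in the FoxA2- gates. At D6 it lay at 1478 to 2697 in the Sox1-FoxA2+ libraries but at 0 to 728 in the Sox1+FoxA2+ libraries, which overlapped the FoxA2- gates at 5.09 to 142, so the FoxA2+ label of the D6 Sox1+FoxA2+ sort is not borne out by its mRNA in every library. The D4 Sox1+FoxA2+ libraries lay at 214 to 1091 and overlapped D4 Sox1+FoxA2- cells at 3.09 to 251, a limit on the D4 and D6 Sox1+FoxA2+ results below. Sox1 was listed at 0 in all 57 libraries and could not check the Sox1 gates. Snai1 was at 0 in 10 libraries, Snai2 in 10, Twist1 in 3 and Twist2 in 16, while the other 5 genes were above 0 in all 57. Twist2 shared 46.5% of its exon bases with Gm29100 on the other strand. Of 460 genes lying wholly inside exons of the other strand, 98.9% had no count in any library, against 31.7% of 43557 genes that share no exon base, so Twist2 counts cover only part of its exons.

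The comparison with the most calls among the 9 genes, 5 of 29 in all, was between progeny at D6, where Vim, Snai2, Zeb2 and Twist1 were lower and Snai1 was higher in the Sox1-FoxA2+ group, set against Sox1+FoxA2-. A gene was called when its adjusted p (edgeR quasi-likelihood test, Benjamini-Hochberg over all genes tested) was under 0.05, and each count is set beside the share of all tested genes called in the same comparison. In Sox1-FoxA2+ minus Sox1+FoxA2-, 1 of 9 genes was called between sorted cells at D4 (0.266% of 22946 genes tested were called), 2 of 9 between sorted cells at D6 (1.32% of 24203 genes tested), 3 of 9 between progeny at D4 (1.97% of 20697 genes tested) and 5 of 9 between progeny at D6 (6.91% of 21069 genes tested). Sox1+FoxA2+ differed from Sox1-FoxA2+ in 1 of 9 genes in sorted cells at D6 (0.0909% of all genes), 1 of 9 in progeny at D4 (0.792%) and 2 of 9 in progeny at D6 (4.63%). Sorted Sox1-FoxA2+ cells differed from Sox1-FoxA2- cells at D6 in 2 of 9 genes (1.0%). Over time, 1 of 9 genes changed from D0 to D2 in each of the Sox1-FoxA2- (1.93%), Sox1+FoxA2- (1.28%), Sox1-FoxA2+ (3.29%) and Sox1+FoxA2+ gates (0.611%), and 1 of 9 changed from D2 to D6 in Sox1-FoxA2+ cells (1.62%). These 4 changes from D0 share the same D0 libraries. Progeny minus sorted cells gave 2 of 9 genes for Sox1+FoxA2+ at D4 (1.32%), 2 of 9 for Sox1+FoxA2- at D6 (3.4%) and 2 of 9 for Sox1+FoxA2+ at D6 (2.37%), and 1 of 9 genes changed its population difference between sorted cells and progeny at D6 (0.0196%). In the other 17 comparisons 0 of 153 tests of the 9 genes were called by edgeR (0.123% of all tests in those comparisons), with 25 at an unadjusted p under 0.05, and DESeq2 called 12 of the 153 (2.52% of all tests). The libraries were made in bulk. Sorted cells were dispensed at a set number, while progeny were counted by hand to about that number. Fewer cells with a transcript and less transcript per cell therefore cannot be told apart.

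**Figure D1:**
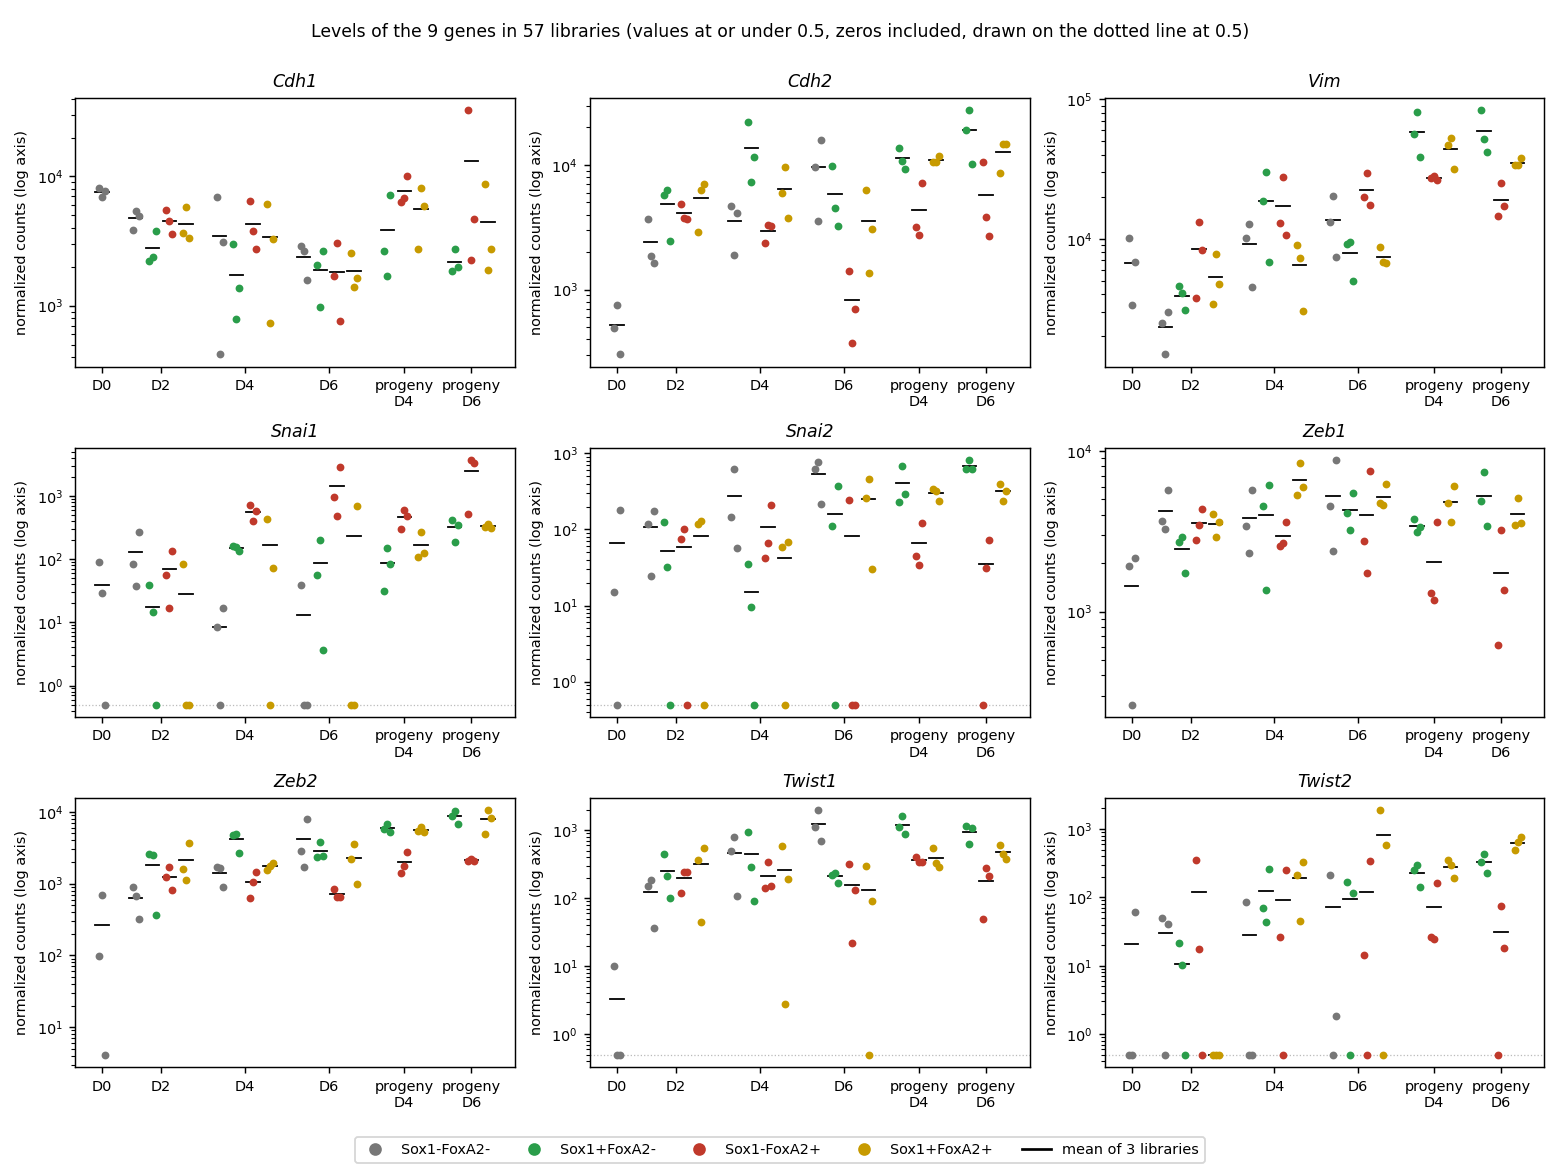
Normalized counts of the 9 genes (log axis) in each of the 57 libraries, grouped by day and by sorted cells or progeny, with colours for the gates and black bars for the mean of 3 libraries. Values at or under 0.5 are drawn at 0.5. Vim is highest in Sox1+FoxA2- and Sox1+FoxA2+ progeny. Cdh2 is lowest at D0 and in sorted D6 Sox1-FoxA2+ cells, and Snai1 is highest in Sox1-FoxA2+ cells and progeny from D4 on.

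Cdh1, which encodes the junctional adhesion protein of pluripotent and epithelial cells, was called in none of its 34 comparisons by edgeR (7 had an unadjusted p under 0.05, and DESeq2 called 3). Its D0 libraries held 8192, 6910.4 and 7665 normalized counts. By D6 the sorted libraries lay at 1578 to 2878 in Sox1-FoxA2-, 972 to 2652 in Sox1+FoxA2-, 754 to 3039.9 in Sox1-FoxA2+ and 1398 to 2565 in Sox1+FoxA2+ cells. All 12 sorted D6 libraries were thus below all 3 D0 libraries, and the 4 populations overlapped. D6 was not tested against D0 directly in any of the 34 comparisons. The change from D2 to D6 was -1.36 ± 0.41 (adjusted p = 0.119) in Sox1-FoxA2+ and -1.56 ± 0.52 (adjusted p = 0.326) in Sox1+FoxA2+ cells. In D4 progeny the libraries held 6306, 6843 and 10049.8 for Sox1-FoxA2+ and 2665, 1684 and 7196 for Sox1+FoxA2- cells, which overlapped. In D6 progeny, Sox1-FoxA2+ libraries held 32602, 2264 and 4724 and Sox1+FoxA2- libraries 1849, 2762 and 1977. The first Sox1-FoxA2+ library stood far above the other two, and the difference of 2.57 ± 1.04 (adjusted p = 0.252) became 0.59 ± 0.62 without it. That same library had the lowest Zeb1, Twist1 and Snai1 and the highest Cdh2 of its group. Over the order of the 19 condition means, from D6 Sox1-FoxA2+ progeny at the top to D4 Sox1+FoxA2- cells at the bottom, all 18 pairs of neighbours overlapped.

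Cdh2, the cadherin of the neural plate and of mesenchyme, rose in 3 of 4 gates between D0 and D2. D0 libraries held 490.2, 757 and 302 normalized counts. D2 libraries held 5785, 6267 and 2442 in Sox1+FoxA2- cells (log2 fold change 3.24, SE 0.57, adjusted p = 0.011). They held 4889, 3781 and 3674 in Sox1-FoxA2+ cells (log2 fold change 2.997, SE 0.47, adjusted p = 0.000671) and 2920.2, 6252 and 7091 in Sox1+FoxA2+ cells (log2 fold change 3.37, SE 0.55, adjusted p = 0.00262). Every D2 library of these gates was above every D0 library. In D2 Sox1-FoxA2- cells the libraries held 3676, 1862 and 1630.1, also all above D0, and the change of 2.21 ± 0.54 (adjusted p = 0.0541) was not called. The Sox1+FoxA2- call was lost without D0 Sox1-FoxA2- replicate 1 (0.0702), D2 Sox1+FoxA2- replicate 1 (0.0768) and D2 Sox1+FoxA2- replicate 2 (0.0533), with adjusted p in brackets, and the other 2 calls held without any single library.

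At D2 the Sox1+FoxA2- and Sox1-FoxA2+ libraries overlapped in Cdh2, and at D4 and D6 they did not. Sorted D4 libraries held 22230.3, 7326 and 11622 in Sox1+FoxA2- and 2378, 3271 and 3209 in Sox1-FoxA2+ cells, with no overlap (log2 fold change -2.20, SE 0.46, adjusted p = 0.032). Sorted D6 libraries held 9900.3, 4537 and 3224 in Sox1+FoxA2- and 1403, 371 and 693 in Sox1-FoxA2+ cells, again with no overlap (log2 fold change -2.64, SE 0.63, adjusted p = 0.0452), where the median of all tested genes was -0.30. D6 Sox1-FoxA2- cells held 9707, 3525 and 15913, higher than Sox1-FoxA2+ cells (log2 fold change -3.52, SE 0.66, adjusted p = 0.00939, median of all genes -0.14). Within the Sox1-FoxA2+ gate Cdh2 fell from D2 to D6 (log2 fold change -2.40, SE 0.46, adjusted p = 0.00582). D6 Sox1+FoxA2+ cells held 6274, 1362 and 3089.7 and overlapped the other 3 gates (1.69 ± 0.61 (adjusted p = 0.341) against Sox1-FoxA2+). The D4 call was lost without Sox1+FoxA2- replicate 1 (0.238), Sox1-FoxA2+ replicate 1 (0.272), Sox1-FoxA2+ replicate 2 (0.0995) and Sox1-FoxA2+ replicate 3 (0.127), and it was also lost with all 57 libraries in 1 fit (0.128), without robust estimation of the spread (0.071) and with the replicate block (0.0528). The replicate numbers paired these D4 libraries. The D6 call against Sox1+FoxA2- was lost without Sox1+FoxA2- replicate 1 (0.113), Sox1+FoxA2- replicate 2 (0.109), Sox1-FoxA2+ replicate 2 (0.148), Sox1+FoxA2- replicate 3 (0.0646) and Sox1-FoxA2+ replicate 3 (0.233), and the call against Sox1-FoxA2- without Sox1-FoxA2+ replicate 3 (0.111).

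Cdh2 kept its direction among progeny. D4 libraries held 13773, 10852 and 9356 for Sox1+FoxA2-, 3202, 2746 and 7106 for Sox1-FoxA2+ and 10504, 10508 and 11793 for Sox1+FoxA2+ progeny. The Sox1-FoxA2+ libraries lay below all others, and Cdh2 was called against Sox1+FoxA2- (log2 fold change -1.35, SE 0.30, adjusted p = 0.0216). Against Sox1+FoxA2+ the difference was 1.25 ± 0.30 (adjusted p = 0.0659), and it was called with the replicate block, where the numbers paired the libraries (1.32, adjusted p = 0.00777). D6 libraries held 19088, 27534 and 10231 for Sox1+FoxA2-, 10549, 3836 and 2684 for Sox1-FoxA2+ and 8685, 14762 and 14798 for Sox1+FoxA2+ progeny, where the first Sox1-FoxA2+ library overlapped both other groups and the difference of -1.77 ± 0.55 (adjusted p = 0.105) from Sox1+FoxA2- was not called. The D4 call was lost without Sox1-FoxA2+ progeny replicate 1 (0.13) and Sox1-FoxA2+ progeny replicate 2 (0.116), and with all 57 libraries in 1 fit (1) and with only the compared groups in the fit (0.0603). In the order of the 19 means, Cdh2 ran from 18951 ± 8652 in D6 Sox1+FoxA2- progeny to 516 ± 229 at D0 (SD, n = 3), and 17 of 18 neighbouring pairs overlapped. The exception was D2 Sox1-FoxA2- above D6 Sox1-FoxA2+ cells.

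**Figure D2:**
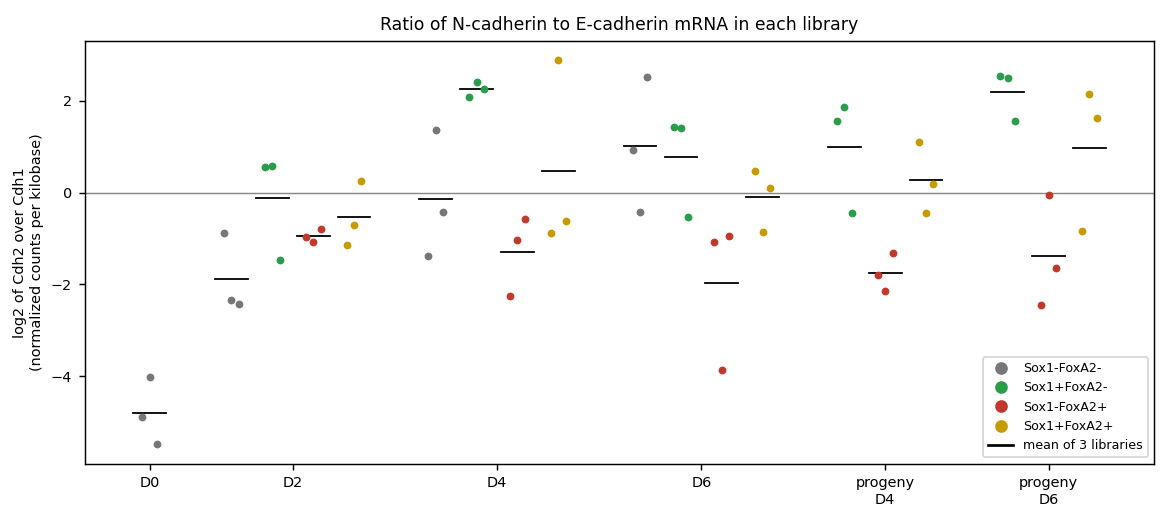
Log2 ratio of Cdh2 to Cdh1 in normalized counts per kilobase of exon, 1 point per library, black bars for the mean of 3 libraries. Points above 0 have more Cdh2 than Cdh1. All 3 D4 Sox1+FoxA2- libraries and all 3 D6 Sox1+FoxA2- progeny libraries lie above 0, and all Sox1-FoxA2+ libraries lie below 0.

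Set side by side per kilobase of exon, Cdh2 exceeded Cdh1 in at least 2 of 3 libraries of every Sox1+FoxA2- condition and in no Sox1-FoxA2+ library. The log2 ratio of Cdh2 to Cdh1 was -4.88, -4.01 and -5.49 in the D0 libraries. In Sox1+FoxA2- cells it was 0.56, 0.57 and -1.46 at D2, 2.08, 2.41 and 2.26 at D4 and 1.44, 1.40 and -0.54 at D6, and in their progeny 1.55, 1.87 and -0.44 at D4 and 2.55, 2.50 and 1.55 at D6. The Sox1-FoxA2+ cells had ratios of -0.98, -1.07 and -0.79 at D2, -2.25, -1.04 and -0.58 at D4 and -1.09, -3.85 and -0.94 at D6, and in their progeny -1.80, -2.14 and -1.32 at D4 and -2.45, -0.06 and -1.63 at D6, so Cdh1 exceeded Cdh2 in all of these libraries. Sox1+FoxA2+ cells lay on both sides of 0, with 0.47, -0.86 and 0.11 sorted at D6 and -0.83, 2.14 and 1.62 in D6 progeny. They had 1 of 3 libraries above 0 at D2 and at D4, and 2 of 3 at D6 and in the progeny of both days. Sox1-FoxA2- cells had 0 of 3 above 0 at D2, 1 of 3 at D4 and 2 of 3 at D6 (0.94, -0.41 and 2.52). Of all 57 libraries, 23 had more Cdh2 than Cdh1 per kilobase, 14 of 39 sorted and 9 of 18 progeny. The ratio is given as a description with no test. Its position against 0 depends on the exon lengths used, 8066 bases for Cdh2 and 4574 for Cdh1. In normalized counts without this scaling, Cdh2 exceeded Cdh1 in Sox1-FoxA2+ replicate 3 at D2 (3674 against 3608) and D4 (3209 against 2721). The same held for D6 Sox1-FoxA2+ progeny replicate 2 (3836 against 2264), and for no other Sox1-FoxA2+ library.

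Vim, the type III intermediate filament of mesenchymal and progenitor cells, rose in progeny against sorted cells of the same day in 3 of 6 contrasts. At D6, sorted Sox1+FoxA2- libraries held 9241, 9492 and 5001 normalized counts and their progeny 83364, 52046 and 41609.7, with no overlap (log2 fold change 3.11, SE 0.33, adjusted p = 1.27e-06). Sorted Sox1+FoxA2+ libraries held 8678, 6867 and 6757 and their progeny 33507, 33888 and 37672, also with no overlap (log2 fold change 2.46, SE 0.32, adjusted p = 9.36e-05). In Sox1-FoxA2+ cells, sorted libraries held 19753, 29586 and 17434 and progeny 14447, 25262 and 17112, which overlapped (-0.13 ± 0.31 (adjusted p = 0.926)). The medians of all tested genes in these contrasts were -0.53, -0.43 and 0.03. At D4 the same contrast was called for Sox1+FoxA2+ cells, from 9078, 7238 and 3043 sorted to 47057, 52712 and 31430.3 in progeny (log2 fold change 2.86, SE 0.56, adjusted p = 0.0134, median of all genes -0.37). It was 1.69 ± 0.53 (adjusted p = 0.272) for Sox1+FoxA2- and 0.64 ± 0.52 (adjusted p = 0.89) for Sox1-FoxA2+ cells. Both D6 calls held without any single library, and the D4 call was lost without D4 Sox1+FoxA2+ replicate 2 (0.0819), D4 Sox1+FoxA2+ progeny replicate 1 (0.05) and D4 Sox1+FoxA2+ progeny replicate 2 (0.0742).

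The order of the populations for Vim turned between sorted cells and progeny at D6. Among sorted cells, Vim in the Sox1-FoxA2+ gate exceeded that of Sox1+FoxA2- (log2 fold change 1.67, SE 0.40, adjusted p = 0.0209) and Sox1+FoxA2+ cells (Sox1+FoxA2+ minus Sox1-FoxA2+, log2 fold change -1.90, SE 0.40, adjusted p = 0.0498, median of all genes 0.25). Among progeny, the Sox1-FoxA2+ group had less Vim than the Sox1+FoxA2- group (log2 fold change -1.68, SE 0.28, adjusted p = 0.00147). In the interaction test, the progeny difference minus the sorted difference was -3.24 ± 0.44 (adjusted p = 0.00114), where the median of all genes was 0.39. The interaction and the progeny call held without any single library, and both were lost with all 57 libraries in 1 fit, at an adjusted p of 0.198 for the interaction and 0.265 for the progeny. The sorted calls were lost, against Sox1+FoxA2-, without Sox1+FoxA2- replicate 1 (0.0501), Sox1-FoxA2+ replicate 2 (0.17) and Sox1+FoxA2- replicate 3 (0.166) and with all 57 libraries in 1 fit (0.118) and without robust estimation of the spread (0.0505), and against Sox1+FoxA2+ without Sox1+FoxA2+ replicate 1 (0.125), Sox1-FoxA2+ replicate 2 (0.197) and Sox1+FoxA2+ replicate 3 (0.0503) and with all 57 libraries in 1 fit (0.102), without robust estimation of the spread (0.133) and with only the compared groups in the fit (0.508). At D4, progeny libraries held 56558, 80590.3 and 38306 for Sox1+FoxA2- and 27109.6, 27998 and 26229.8 for Sox1-FoxA2+ cells, with no overlap (-1.09 ± 0.29 (adjusted p = 0.0594)), and the difference was called with the replicate block, where the numbers paired the libraries (-1.02, adjusted p = 0.000753). Over the 19 means, Vim ran from 59007 ± 21730.1 in D6 Sox1+FoxA2- progeny to 2323 ± 763 in D2 Sox1-FoxA2- cells (SD, n = 3). All but 2 of 18 neighbouring pairs overlapped, and the 2 that did not were D6 Sox1+FoxA2+ progeny above D4 Sox1-FoxA2+ progeny and D2 Sox1+FoxA2- above D2 Sox1-FoxA2- cells.

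**Figure D3:**
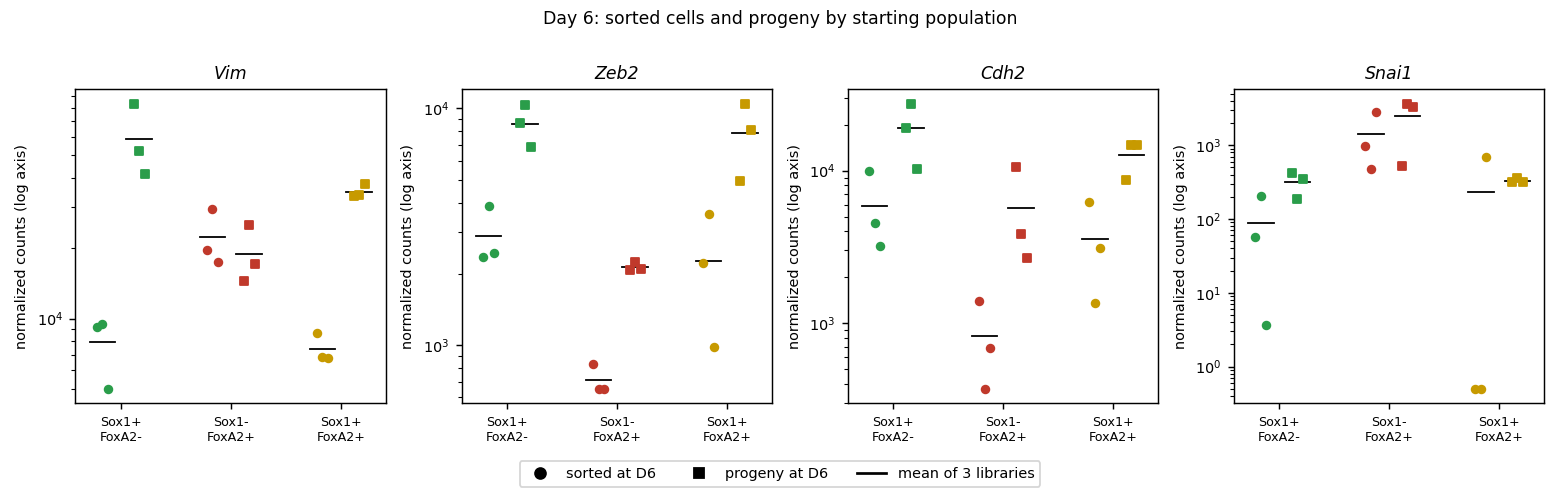
Normalized counts (log axis) of Vim, Zeb2, Cdh2 and Snai1 at D6 in the 3 libraries of each population, as sorted cells (circles) and as progeny of cells sorted at D2 (squares), with black bars for the mean. Values at or under 0.5 are drawn at 0.5. Vim rises from sorted cells to progeny in the Sox1+FoxA2- and Sox1+FoxA2+ populations and overlaps between them in Sox1-FoxA2+.

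Zeb2, a zinc-finger E-box repressor that is also strongly expressed in the developing nervous system, was lower in Sox1-FoxA2+ progeny on both days. D4 progeny libraries held 5692, 6743 and 5257 for Sox1+FoxA2-, 1419, 1779 and 2770.3 for Sox1-FoxA2+ and 5352, 6228 and 5172 for Sox1+FoxA2+ cells. D6 progeny libraries held 8689, 10318 and 6868, 2075, 2235 and 2085 and 4932, 10474 and 8114 in the same order. All 3 Sox1-FoxA2+ libraries lay below all 6 others on each day. Against Sox1+FoxA2- the log2 fold change was -1.54 ± 0.28 (adjusted p = 0.00422) at D4 and -2.06 ± 0.27 (adjusted p = 0.000236) at D6. Sox1+FoxA2+ minus Sox1-FoxA2+ gave 1.40 ± 0.28 (adjusted p = 0.0175) at D4 and 1.86 ± 0.27 (adjusted p = 0.00107) at D6. Of these 4 calls, only that of D4 Sox1+FoxA2+ depended on single libraries, and it was lost without Sox1-FoxA2+ progeny replicate 1 (0.101), Sox1-FoxA2+ progeny replicate 2 (0.0834) and Sox1+FoxA2+ progeny replicate 2 (0.0636).

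Among sorted cells, D6 libraries held 2863, 1698 and 7975 in Sox1-FoxA2-, 2346, 3850.2 and 2445 in Sox1+FoxA2- and 829.6, 654 and 653 in Sox1-FoxA2+ cells. The Sox1-FoxA2+ libraries lay below both, and the difference was called against Sox1-FoxA2- (log2 fold change -2.53, SE 0.56, adjusted p = 0.0136) and not against Sox1+FoxA2- (-1.84 ± 0.55 (adjusted p = 0.1)). The first of these was lost without Sox1-FoxA2- replicate 3 (0.356) and Sox1-FoxA2+ replicate 3 (0.0511) and with all 57 libraries in 1 fit (0.125). Progeny held more Zeb2 than sorted cells of the same day in Sox1+FoxA2+ at D4 (1.83 ± 0.36 (adjusted p = 0.00667)) and D6 (2.00 ± 0.40 (adjusted p = 0.00509)) and in Sox1+FoxA2- at D6 (1.79 ± 0.39 (adjusted p = 0.00759)). In Sox1-FoxA2+ cells the D6 libraries did not overlap either, with a change of 1.69 ± 0.39 (adjusted p = 0.0891) that was not called. The D6 Sox1+FoxA2- call was lost without D6 Sox1+FoxA2- replicate 1 (0.0533) and D6 Sox1+FoxA2- replicate 3 (0.0585) and with all 57 libraries in 1 fit (0.217). The Sox1+FoxA2+ calls held without any single library, and they were lost at D4 with all 57 libraries in 1 fit (0.265) and at D6 with all 57 libraries in 1 fit (0.196) and with only the compared groups in the fit (0.113). The interaction at D6 was -0.11 ± 0.54 for Zeb2, so no change of the population difference was detected. All 18 neighbouring pairs of the 19 means overlapped, from 8625 ± 1726 in D6 Sox1+FoxA2- progeny to 264 ± 370.1 at D0 (SD, n = 3), with 99.5, 688 and 4.13 in its 3 libraries.

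Zeb1, the paralogous repressor, was called in none of 34 comparisons by edgeR (it had an unadjusted p under 0.05 in 8 and was called by DESeq2 in 1). It varied over a narrower range, from 6557 ± 1658 in D4 Sox1+FoxA2+ cells to 1444 ± 1030.0 at D0 (SD, n = 3), and all 18 neighbouring pairs overlapped. D6 progeny libraries held 4897, 7429 and 3403 for Sox1+FoxA2-, 618, 3228 and 1364 for Sox1-FoxA2+ and 3439.8, 5078 and 3543 for Sox1+FoxA2+ cells, and the Sox1-FoxA2+ libraries were below both. The difference was -1.64 ± 0.53 (adjusted p = 0.113) from Sox1+FoxA2- and 1.19 ± 0.52 (adjusted p = 0.293) for Sox1+FoxA2+ minus Sox1-FoxA2+. With the replicate block, where the numbers paired the libraries, Zeb1 was called for Sox1+FoxA2+ minus Sox1-FoxA2+ at D4 (1.27, adjusted p = 0.00415) and D6 (1.42, adjusted p = 0.0327) and for Sox1-FoxA2+ minus Sox1+FoxA2- at D4 (-0.90, adjusted p = 0.0374).

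Promoter windows from the RefSeq promoter table were obtained here for 5 of the 9 genes, Vim, Snai1, Zeb2, Twist1 and Twist2. Not every gene was searched without restriction, so a missing window does not show that the table lacks that gene. The 250 bases before the RefSeq start (GRCm38.p6) of Snai1, Zeb2 and Twist1 are shown because Snai1 rose while Zeb2 and Twist1 fell in the same D6 progeny contrast. None of these windows overlapped a gene of GENCODE M21. The windows of Vim, which also fell in this contrast, and of the other listed Zeb2 starts overlapped exons and are not shown. Capitals mark the E-box CAGGTG or its reverse complement CACCTG, which Snail and Zeb proteins bind, and the forkhead core TGTTTAC or GTAAACA was searched as well, both on both strands.
Snai1 (chr2:167537945-167538194, plus strand): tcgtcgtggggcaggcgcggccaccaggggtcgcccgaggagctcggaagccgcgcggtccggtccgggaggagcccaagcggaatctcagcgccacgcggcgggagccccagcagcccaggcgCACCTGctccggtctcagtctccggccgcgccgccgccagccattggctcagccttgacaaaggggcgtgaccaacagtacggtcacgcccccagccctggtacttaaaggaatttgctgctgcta
Zeb2, the first of 4 listed starts (chr2:45117443-45117692, minus strand): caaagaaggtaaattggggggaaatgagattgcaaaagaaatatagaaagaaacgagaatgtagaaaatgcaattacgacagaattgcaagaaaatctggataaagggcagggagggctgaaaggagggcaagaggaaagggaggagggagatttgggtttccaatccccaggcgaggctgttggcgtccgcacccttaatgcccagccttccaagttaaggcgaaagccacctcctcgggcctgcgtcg
Twist1 (chr12:33957421-33957670, plus strand): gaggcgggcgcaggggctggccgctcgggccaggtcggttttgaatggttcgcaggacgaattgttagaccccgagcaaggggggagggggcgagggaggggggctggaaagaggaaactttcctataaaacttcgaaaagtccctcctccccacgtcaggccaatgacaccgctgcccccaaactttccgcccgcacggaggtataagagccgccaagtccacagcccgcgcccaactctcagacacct
Snai1 held 1 E-box and the other 2 windows held none, while 17.2% of all 32851 promoter windows of this length held one. None of the 3 windows held the forkhead core, which 3.17% of all windows held. These matches are descriptions of the letters in the windows.

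Snai1, the zinc-finger repressor of Cdh1, was higher in Sox1-FoxA2+ progeny at D6. Libraries held 522, 3669 and 3352 for Sox1-FoxA2+, 420.2, 188 and 350.5 for Sox1+FoxA2- and 319, 359 and 315 for Sox1+FoxA2+ progeny. Each Sox1-FoxA2+ library was above all 6 others, and the first of them was the lowest. The log2 fold change was 2.93 ± 0.58 (adjusted p = 0.00888) against Sox1+FoxA2-, and Sox1+FoxA2+ minus Sox1-FoxA2+ gave -2.93 ± 0.58 (adjusted p = 0.0137). The first call was lost without Sox1+FoxA2- progeny replicate 2 (0.065) and Sox1+FoxA2- progeny replicate 3 (0.0585), and the second without Sox1+FoxA2+ progeny replicate 1 (0.12), Sox1+FoxA2+ progeny replicate 2 (0.0925) and Sox1+FoxA2+ progeny replicate 3 (0.0882). The Snai1 libraries of Sox1-FoxA2+ also lay apart from those of Sox1+FoxA2- after sorting at D4 and D6 and in D4 progeny, although none of these was called. Sorted D4 libraries held 722, 396 and 583 against 164, 158 and 134 (1.92 ± 1.74 (adjusted p = 1)). Sorted D6 libraries held 971, 480.3 and 2862 against 57.1, 204 and 3.7 (4.04 ± 2.63 (adjusted p = 0.548)). D4 progeny held 302, 606 and 482 against 31, 149 and 83.8 (2.37 ± 0.73 (adjusted p = 0.133)), which was called with the replicate block, where the numbers paired the libraries (2.57, adjusted p = 0.0245). At D2 the same gates overlapped, with 56, 16.7 and 136 against 38.7, 14.6 and 0. The highest mean was 2515 ± 1733 in D6 Sox1-FoxA2+ progeny and the lowest 8.44 ± 8.4 in D4 Sox1-FoxA2- cells (SD, n = 3), with all 18 neighbouring pairs overlapping.

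Snai2, its close relative and a marker of migrating neural crest and mesenchyme, moved the other way. D6 progeny libraries held 622, 811 and 621 for Sox1+FoxA2-, 0, 30.8 and 73.6 for Sox1-FoxA2+ and 394, 236 and 319 for Sox1+FoxA2+ cells. The Sox1-FoxA2+ libraries were below all others, and Snai2 was called against Sox1+FoxA2- (log2 fold change -4.37, SE 1.04, adjusted p = 0.0265) and not against Sox1+FoxA2+ (Sox1+FoxA2+ minus Sox1-FoxA2+, 3.20 ± 0.99 (adjusted p = 0.105)). The call was lost without Sox1+FoxA2- progeny replicate 1 (0.0942), Sox1+FoxA2- progeny replicate 2 (0.105), Sox1-FoxA2+ progeny replicate 2 (0.142) and Sox1+FoxA2- progeny replicate 3 (0.0818), and with all 57 libraries in 1 fit (0.81) and with only the compared groups in the fit (0.0669). In D4 progeny, libraries held 233, 688 and 289 for Sox1+FoxA2- and 44.5, 33.9 and 123 for Sox1-FoxA2+ cells, with no overlap (-2.59 ± 0.71 (adjusted p = 0.074)). Among sorted cells Snai2 was highest in D6 Sox1-FoxA2-, at 628, 760.0 and 217, while 244, 0 and 0 in D6 Sox1-FoxA2+ cells left 2 of 3 libraries at 0 (-2.59 ± 2.05 (adjusted p = 0.74)). All 18 neighbouring pairs of the 19 means overlapped.

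Twist1, a basic helix-loop-helix factor of head mesenchyme and neural crest, was nearly absent at D0, with 9.95, 0 and 0 normalized counts (8, 0 and 0 reads). In D2 Sox1-FoxA2- cells it rose to 149, 189 and 37 (log2 fold change 5.22, SE 1.24, adjusted p = 0.0337), a fold that rests on those few D0 reads, and the call was lost without D2 Sox1-FoxA2- replicate 1 (0.0934), D2 Sox1-FoxA2- replicate 2 (0.0776) and D0 Sox1-FoxA2- replicate 3 (0.0873) and without robust estimation of the spread (0.0548) and with only the compared groups in the fit (0.252). The other D2 gates were also above every D0 library, at 101 to 445 in Sox1+FoxA2-, 119 to 243 in Sox1-FoxA2+ and 45.4 to 554 in Sox1+FoxA2+ cells, and were not called. The highest mean was in D6 Sox1-FoxA2- cells, with 1098, 1958 and 685.

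Among progeny, Twist1 was lower in the Sox1-FoxA2+ group on both days, set against Sox1+FoxA2-. D4 libraries held 1125, 1628 and 885 for Sox1+FoxA2- and 409, 344 and 337 for Sox1-FoxA2+ progeny, with no overlap (log2 fold change -1.73, SE 0.41, adjusted p = 0.0314). D6 libraries held 1141, 620.0 and 1085 and 50, 277 and 212, again with no overlap (log2 fold change -2.44, SE 0.53, adjusted p = 0.00925). Sox1+FoxA2+ progeny held 543, 335 and 289 at D4, overlapping Sox1-FoxA2+ progeny, and 614, 444 and 376 at D6, between the other groups without a call against either. The D4 call was lost without Sox1-FoxA2+ progeny replicate 1 (0.0829), Sox1+FoxA2- progeny replicate 2 (0.253), Sox1-FoxA2+ progeny replicate 2 (0.107) and Sox1-FoxA2+ progeny replicate 3 (0.0965), and the D6 call without Sox1+FoxA2- progeny replicate 1 (0.0581). Of the 18 neighbouring pairs 16 overlapped. The exceptions were D6 Sox1+FoxA2- progeny above D6 Sox1+FoxA2+ progeny and D2 Sox1-FoxA2- cells above D0.

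Twist2, the paralogue with partly unassigned exons, was called in none of 34 comparisons by edgeR (it had an unadjusted p under 0.05 in 6 and was called by DESeq2 in 3). D6 progeny libraries held 485, 642 and 774 for Sox1+FoxA2+, 327, 431 and 224 for Sox1+FoxA2- and 0, 75 and 18 for Sox1-FoxA2+ cells, 3 ranges that did not overlap. Sox1+FoxA2+ minus Sox1-FoxA2+ gave 4.31 ± 1.10 (adjusted p = 0.0512), which was called with the replicate block, where the numbers paired the libraries (4.99, adjusted p = 0.0327). Sorted D6 Sox1+FoxA2+ libraries held 1867, 0 and 592, the widest range in normalized counts of all conditions, though not relative to the mean. Of the 18 neighbouring pairs of means 17 overlapped, the exception being D6 Sox1+FoxA2+ progeny above D6 Sox1+FoxA2- progeny. All 3 D2 Sox1+FoxA2+ libraries were listed at 0.

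**Figure D4:**
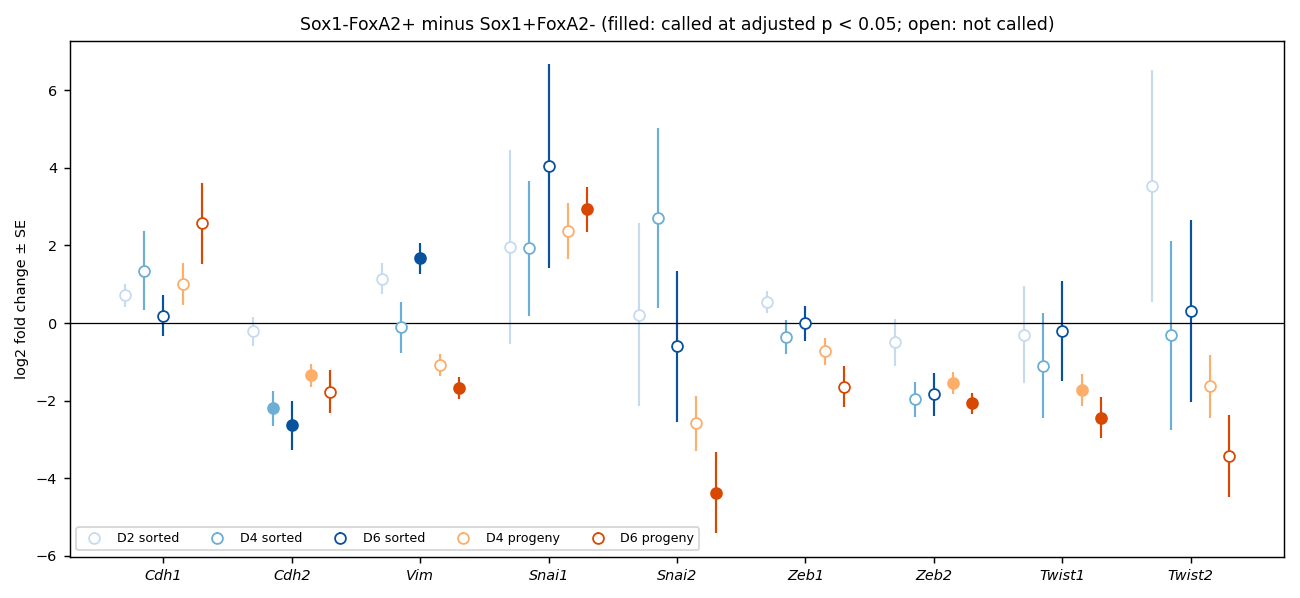
Log2 fold changes (± SE) of Sox1-FoxA2+ minus Sox1+FoxA2- for the 9 genes in sorted cells at D2, D4 and D6 and in progeny at D4 and D6, with filled points for genes called at an adjusted p under 0.05. Zeb2 and Cdh2 lie below 0 in all 5 comparisons, Snai1 lies above 0 in all 5, and Vim is above 0 in sorted D6 cells and below 0 in D6 progeny.

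None of the 11 progeny calls passed when all 57 libraries shared 1 fit, where their adjusted p lay between 0.265 and 1. Where the 5 contrasts of Sox1-FoxA2+ against Sox1+FoxA2- are set side by side, the fold changes of Cdh2 were -0.21, -2.20 and -2.64 in sorted cells at D2, D4 and D6 and -1.35 and -1.77 in D4 and D6 progeny. For Zeb2 they were -0.49, -1.97, -1.84, -1.54 and -2.06 in the same order. For Snai1 they were 1.96, 1.92, 4.04, 2.37 and 2.93, and for Cdh1 0.71, 1.35, 0.19, 1.01 and 2.57. At D6, the interaction between progeny and sorted cells was called for Vim alone of the 9 genes, and at D4 for none (0 of 9 by edgeR, 1 at an unadjusted p under 0.05, 0 by DESeq2).

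Other genes of the transition were read from 4 lists. Of 17 epithelial genes, 16 were tested in D6 progeny and 4 were called for Sox1-FoxA2+ minus Sox1+FoxA2-, all higher, where 6.91% of all genes were called. They were Epcam, an epithelial adhesion molecule (2.33 on the log2 scale), the tight junction gene Cldn6 (2.44), the keratin gene Krt8 (1.32) and the epithelial splicing regulator Esrp1 (2.91). The median of the list was 1.34, against -0.04 over all genes tested, and 14 of 16 were positive. In sorted D6 cells the list had a median of 0.23 against -0.30 over all genes, with 11 of 17 positive. Of 16 mesenchymal genes, 14 were tested and 3 were called in D6 progeny. The smooth muscle actin gene Acta2 was lower (-3.07), while the matrix gene Sparc (2.54) and the integrin gene Itga5 (1.13) were higher, and the list's median was -2.43 with 3 of 14 positive. Sparc, which parietal endoderm also expresses abundantly, was the 1 mesenchymal gene called in sorted D6 cells (6.01), where 1.32% of all genes were called. Of 14 inducers of the transition, 6 were called in D6 progeny, 4 lower and 2 higher. The 4 with the smallest adjusted p were the chromatin protein gene Hmga2 (-3.95) and the ligand gene Tgfb2 (-2.09), which were lower, and the zinc-finger gene Klf8 (3.73) and the signal mediator Smad2 (0.99), which were higher. The list's median was -0.73. Of 11 catenins and other classical cadherins, 1 was called in D6 progeny, a share near that over all genes, the neural alpha-catenin gene Ctnna2 (1.26), and 1 in sorted D6 cells, the plakoglobin gene Jup (2.04). The list of 11 had a median of -0.19 in D6 progeny. In D4 progeny, where 1.97% of all genes were called, 1 of 17 epithelial genes was called, Esrp1 at 3.43, and the list's median was 0.86. Of 14 mesenchymal genes tested there, 5 were called lower and 1 was called higher, Sparc at 1.95. The list's median was -1.27 against -0.02 over all genes, with 3 of 14 positive. The D4 values of Esrp1 and Sparc were named after they were seen.

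Markers of other cell types moved with these contrasts. The summed normalized counts of 6 parietal endoderm markers were 830532 to 1790390.0 in sorted D6 Sox1-FoxA2+ and 7941 to 15929 in Sox1+FoxA2- cells, and 977194 to 1903340.0 and 55348 to 151714 in their progeny. At D6 the sums of most other lists were carried by few genes. The 6 mesenchyme markers summed to 1668 to 3315 in sorted D6 Sox1+FoxA2- cells and 22168 to 61941 in their progeny, beside the higher Vim and Zeb2 of those progeny, and to 7453 to 23699.7 and 8271 to 29494 in Sox1-FoxA2+ cells and progeny. In Sox1+FoxA2- progeny the sum was mostly Col1a1 and Col3a1 (means 22173 and 11568, against 186 and 136 sorted), while Meox1 had a mean of 57 against 1557 sorted. In the Sox1-FoxA2+ cells and progeny it was mostly Pdgfra (means 15314 and 18076). For Sox1+FoxA2+ the mesenchyme sum was 3559 to 17262 sorted and 18371 to 18796 in progeny.

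The 6 neuroectoderm markers summed to 2667 to 7665 in sorted D6 Sox1+FoxA2- cells and 12666 to 22639.8 in their progeny. Nes carried this difference (means 3398 and 16842), whereas Pax6 had means of 1769.5 and 296 and Sox3 of 277 and 19.7. Sox2 was listed at 0 in both and in every other condition, D0 included, so its zeros do not mark these cells. In Sox1-FoxA2+ cells and progeny the sums were 956 to 1136 and 2684 to 3830.5. The 6 neural crest markers summed to 5921 to 10701 in D6 Sox1+FoxA2- and 4115 to 6404 in Sox1-FoxA2+ progeny, of which Ets1 made up most (means 8224 and 4668). Sox10 had means of 18.5 and 15.8, Pax3 of 62.1 and 303, and Foxd3 was listed at 0 there and in every other condition. The 6 pluripotency markers summed to 25288 to 77669 at D0, 4951 to 13076 in D6 Sox1-FoxA2+ and 1647 to 4851 in D6 Sox1+FoxA2- progeny. The difference between these progeny lay mostly in Klf4 (means 8592 and 1214), while Nanog had means of 12.7 and 320.2 and Pou5f1 of 38 and 22.5, against 9498 and 5509.5 at D0. Of the 6 visceral endoderm markers in sorted D6 Sox1-FoxA2+ cells, Cubn gave nearly the whole sum (mean 39872, sum 28014 to 60837), Amn had a mean of 57.9 and Afp and Ttr were at 0. The 6 mesendoderm markers summed to at most 965 in any library. The part of these markers in the changes of the 9 genes was not tested.

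Across all 57 libraries, the genes whose log2 levels followed Cdh2 most closely among 13921 genes were Farp1 (Pearson r = 0.836), Setbp1 (0.829) and Gli3 (0.825). Those closest to Vim were the thymosin gene Tmsb4x (0.892), the calponin gene Cnn2 (0.864) and the caldesmon gene Cald1 (0.860), which all encode actin-binding proteins. For Cdh1 the closest were Iqgap1 (0.680), Cmip (0.595) and Akap1 (0.574). Among the 9 genes the closest pair was Cdh2 with Zeb2 (r = 0.819), followed by Twist1 with Zeb2 (0.620) and with Cdh2 (0.617), while the lowest value was that of Cdh1 with Zeb1 (-0.412). These correlations are descriptions over libraries that share days, gates and depth.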

How the data were processed

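Bulk RNA-seq was measured in 57 libraries of 19 conditions, 3 per condition. Per the study's methods the authors aligned reads with STAR to GENCODE M21, sorted them with SAMtools and obtained the deposited raw counts per gene with featureCounts. Tool versions and counting settings are not given in the sources used here. The 92 lines that named no gene held 0 counts. Groups came from the sample labels. Levels are counts divided by DESeq2 1.42.0 size factors over all 57 libraries. Differences were tested in R 4.3.3 with edgeR 4.0.16 (TMM, filterByExpr with a minimum count of 10 and total of 15, robust quasi-likelihood test) and adjusted by Benjamini-Hochberg over all genes tested, with calls at 0.05. The p-values rest on a spread between libraries that is estimated per gene within all groups of a fit and moderated across genes. They do not measure the spread of the compared groups alone. Library totals limit precision for counts near 0.

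The members and gene lists were chosen with earlier results of these data known. All 9 members are named. From the 4 lists, called genes of D6 Sox1-FoxA2+ minus Sox1+FoxA2- were named, at most 4 a list and comparison by adjusted p, with the 3 genes most correlated with each of Cdh1, Cdh2 and Vim. Replicate numbers were checked on 5000 genes. The correlation of deviations from group means lay between -0.307 and 0.591, and every pair exceeded 0.1 in 12 of 32 comparisons. Alternatives were DESeq2, a replicate block, all 57 libraries in 1 fit, only the compared groups, no filter, each library left out, and no robust estimation, which was added after seeing the data. For the order of levels, TMM-scaled counts were also used. Scripts were tested on simulated data.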

Additional observations from a re-analysis of the deposited data

Results flagged for a closer look

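At D6, the Vim difference between Sox1-FoxA2+ and Sox1+FoxA2- populations differed between progeny and sorted cells, by -3.24 on the log2 scale (SE 0.44, adjusted p = 0.00114, edgeR quasi-likelihood interaction test). It was flagged because the interaction itself passed the test. Vim was higher in Sox1-FoxA2+ cells in all 3 sorted libraries and lower in all 3 progeny libraries. Groups of 3 libraries are too small for the check on single outlying samples.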

How the results depend on the processing

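Counts of calls among the 9 genes depended on the fit. Each count is followed by the share of all gene tests called in the same comparisons. Between sorted populations the 6 calls (0.314%) became 2 with all 57 libraries in 1 fit (0.442%), 11 with DESeq2 (3.33%), 14 with no filter on low counts (0.746%) and 3 without robust estimation of the spread (0.267%). Between progeny the 11 calls (2.43%) became 0 (0.23%), 22 (4.43%) and 27 (3.02%) under the first 3 of these and 19 with the replicate block (3.48%). Over time the 5 calls (1.07%) became 9 (1.21%), 19 (6.8%) and 20 (1.9%) under the same 3, and 8 with only the compared groups in the fit (1.63%). Between progeny and sorted cells the 6 calls (1.34%) became 13 with DESeq2 (6.14%), 13 with no filter (2.24%) and 10 with the replicate block (1.58%). The 1 interaction call (0.00993%) became 0 with all 57 libraries (0.00507%) and 2 with no filter (0.325%). The cause of these shifts was not tested.

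Leaving out 1 library at a time gave 3 to 7 calls between sorted populations, with 3 without D6 Sox1-FoxA2+ replicate 2 and 3 without replicate 3. It gave 8 to 16 between progeny, 4 to 7 over time, 5 to 7 between progeny and sorted cells and 1 to 1 for the interaction. All 9 genes kept their highest condition in the full data by definition, and 5 to 8 kept it without 1 replicate number. With TMM-scaled counts 6 kept it, and the highest condition of Zeb1, Twist1 and Twist2 changed. Of 29 called fold changes, 12 were called without any single library and 0 reversed under any alternative run, while 29 of 174 other alternatives and 48 of 180 refits without 1 library lost the call. In comparisons whose numbers did not pair the libraries, the replicate block added calls such as Vim in sorted D4 Sox1+FoxA2+ minus Sox1-FoxA2+ (-1.73, adjusted p = 0.00569). Values of genes near 0 counts, such as Snai1, Snai2 and Twist2, are imprecise, and whether depth or cell input set this was not tested.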
